A study of Homo sapiens with 8 samples.

Results

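HepG2, a human hepatocellular carcinoma line, was compared with and without CM272 over all genes that the arrays name. The comparison holds 4 arrays, 2 of treated and 2 of control cells, out of 8 in the series. All arrays whose titles give HepG2 were taken, and no measured value entered that choice of arrays. The comparison itself and the gene lists below were chosen with earlier results of these data known. Treated HepG2 cells received CM272 at 400 nM for 48 h in medium with 10% fetal bovine serum. Control HepG2 cells received the vehicle alone, 0.1% DMSO, for the same time, although their treatment label reads "none". The other 4 arrays are of LX2, a line of hepatic stellate cells, with the same dose, time and vehicle but 2% serum, so line and serum level cannot be told apart wherever HepG2 is set against LX2. Each line is a single established culture line. Samples of a group carry numbers, but no label says whether each number is its own culture. The spread behind every p-value may therefore be technical.

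The study used CM272 to inhibit 2 enzymes at once. G9a, encoded by EHMT2, methylates lysine on histone H3 and marks silent chromatin together with its partner GLP, encoded by EHMT1. DNMT1 copies DNA methylation onto newly made strands, and UHRF1 brings it there. Both marks hold germline genes and some tumour suppressors silent in cancer cells, and HepG2 keeps much of the hepatocyte programme, secreting plasma proteins and lipoproteins and making cholesterol. The study's design text gives the aim as a transcriptome after joint inhibition of both enzymes in the 2 cell lines.

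Values are log2 expression values per gene, so that a difference of 1 is a 2-fold difference. Of 14884 gene symbols, 12239 passed a brightness filter, a log2 value above 4 on both arrays of some group. Of these, 1109 had a mean of at most 4 in both HepG2 groups and so passed through LX2 alone. Hepatocyte markers were bright in every HepG2 array: ALB lay between 13.24 and 13.31, AFP between 12.62 and 12.78, APOB between 13.05 and 13.30, and GPC3 between 12.15 and 12.21. Among the other marker genes, the stellate and fibroblast gene THY1 lay between 4.42 and 4.54 in HepG2, against a mean of 5.81 in LX2 controls, the leukocyte gene CD14 at or below 4.52, and the endothelial gene PECAM1 at or below 3.99. CD68, which is not restricted to leukocytes, lay between 8.17 and 8.74. LUM and DCN were at or below 2.75 in HepG2 but equally dim in LX2 controls (2.88 and 2.05), so they do not bear on stellate cells. Neither ACTA2, PDGFRB, COL1A1, COL1A2 nor COL3A1 had a named probe set, and the leukocyte check lacks PTPRC and CD3E. Replicate arrays correlated across genes at 0.990 for the controls and 0.987 for CM272. One feature of the arrays bears on every result below. Of 27 genes with a difference of 2-fold or more and no overlap between groups, the CM272 replicate 2 array lay farther from the controls than CM272 replicate 1 for 26, and control replicate 2 lay nearer to CM272 than control replicate 1 for 24. Over all 12239 genes these counts were 6999 and 6700. For the largest differences the arrays of a group were thus ordered along the axis that separated the groups, and the part this plays was not tested.

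Only C5AR1 passed the test for a difference between CM272 and control in HepG2, and it fell. C5AR1 encodes the cell surface receptor for C5a, the inflammatory fragment of complement component C5. Its log2 values were 6.39 and 6.32 in the controls and 4.47 and 4.46 with CM272. Both treated arrays lay far below both controls, and the arrays of a group were within 0.1 of each other. The treated values were dim, near the medians over all probe sets of those arrays (4.25 and 4.23), where folds are compressed. The mean fell by 1.89 on the log2 scale (SE 0.17, 95% interval -2.28 to -1.51, n = 2 and 2 arrays, limma adjusted p = 0.0122), which is 3.71-fold. One call among 12239 genes is 0.00817% of those tested. Leaving out any 1 of the 4 HepG2 arrays ended the call although the change stayed between -1.93 and -1.86. Such a fit leaves 1 array in a group and has less power, whichever array is left out. The same holds for every such fit below, so a lost call does not by itself mark that array as its source. A fit of the HepG2 arrays alone also ended the C5AR1 call, with a limma adjusted p of 0.0523. In LX2 the same receptor gene had values of 4.53 and 4.41 in controls and 5.30 and 4.82 with CM272, a difference of 0.59 that did not pass (limma adjusted p = 0.0647). Between lines, the HepG2 difference minus the LX2 difference was -2.48 for C5AR1 and passed (limma adjusted p = 0.00217), and it also passed without any 1 of the 4 HepG2 arrays.

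The bases before the RefSeq start site of C5AR1 are shown because it is the single gene called, with any CCAAT box in capitals (CCAAT on either strand, so also read as ATTGG). The window is chr19:47309611-47309860 on the plus strand of GRCh38.p14, the 250 bases before the start, and it holds 1 such box, which begins 88 bases before the start.
C5AR1: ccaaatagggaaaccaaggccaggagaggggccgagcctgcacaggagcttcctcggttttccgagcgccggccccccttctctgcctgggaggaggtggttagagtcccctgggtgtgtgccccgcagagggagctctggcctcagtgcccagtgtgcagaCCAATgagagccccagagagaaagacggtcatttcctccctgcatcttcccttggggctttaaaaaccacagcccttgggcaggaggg

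No gene was called higher in HepG2, whereas 583 genes (4.76%) had a limma unadjusted p under 0.05 in the higher direction and 820 (6.7%) in the lower. The second smallest limma adjusted p was 0.117. In LX2 the same fit called 1031 genes (8.42%), of which 464 rose and 567 fell. Differences of 2-fold or more with no overlap between groups numbered 8 higher and 19 lower in HepG2, against 142 and 88 in LX2. At 1.5-fold they numbered 163 and 200 in HepG2 and 573 and 729 in LX2. The counts of the lines were not compared by a test. The median standard error of a HepG2 difference was 0.17.

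Both CM272 arrays lay above both control arrays for 2535 genes (20.7%) and below them for 3453 (28.2%). These shares over all genes are the background for the counts of members below, together with the shares by brightness that close this paragraph. They moved with the scaling: 22.49% and 25.45% after quantile normalization over the 8 arrays, and 15.07% and 35.41% after each array was centred on its median. The median difference over all genes was -0.02, and it was -0.065 after centring. Bright genes tended lower: the median difference was 0.03 for genes with a mean of 4 to 6, -0.06 from 6 to 8 and -0.10 above 8. Both CM272 arrays lay below the controls for 17.1%, 38.8% and 51.9% of genes in these classes. They lay above the controls for 23.7%, 17.9% and 17.1%.

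Beyond C5AR1, the smallest p-values belonged to 3 genes that did not pass. MAB21L3 had 8.42 and 7.82 in controls and 6.56 and 5.98 with CM272, a difference of -1.85 (SE 0.25, limma adjusted p = 0.117). SRGAP1, a GTPase-activating protein of the Slit and Robo pathway, had 8.58 and 8.43 against 7.43 and 6.93, a difference of -1.32 (SE 0.18, limma adjusted p = 0.12). HP, which encodes haptoglobin, the plasma protein that binds free haemoglobin, had 7.33 and 7.57 against 8.60 and 9.14, a difference of 1.42 (SE 0.19, limma adjusted p = 0.117). For each of these 3 genes the groups did not overlap. They passed in 3 alternatives: a stricter filter at log2 6 (limma adjusted p = 0.0387 for each), array weights (0.0464 for MAB21L3 and 0.0412 for the others) and a variance prior with an intensity trend and robust settings (0.037 for MAB21L3 and 0.0351 for the others). HP has a near copy, HPR, from which its probes may not be told apart.

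IGFBP1, a liver-secreted binder of insulin-like growth factors, had the second largest lower value, with 11.50 and 10.80 in controls and 9.83 and 8.74 with CM272 (difference -1.87, SE 0.33, limma adjusted p = 0.22). Its replicates stood farther apart than those of C5AR1. The ligand of the epidermal growth factor receptor EREG had 7.05 and 6.13 against 5.29 and 4.81 (difference -1.54, limma adjusted p = 0.22). The Notch ligand JAG1 had 11.29 and 11.13 against 10.39 and 9.82 (difference -1.10, limma adjusted p = 0.212). TRIB1, a pseudokinase that steers protein degradation, had 10.04 and 9.74 against 9.09 and 8.49 (difference -1.10, limma adjusted p = 0.22). In all 4 genes CM272 replicate 2 was the lowest array.

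Among the higher values beside HP stood CREB3L3, a liver transcription factor held in the endoplasmic reticulum membrane, with 7.28 and 7.64 in controls and 8.41 and 8.74 with CM272 (difference 1.11, limma adjusted p = 0.212). CPB2, a plasma carboxypeptidase that slows the dissolving of clots, had 7.25 and 7.88 against 8.35 and 8.85 (difference 1.03, limma adjusted p = 0.227). MOGAT1, which acylates monoacylglycerol, had 4.92 and 5.36 against 5.83 and 6.45 (SE 0.22, limma adjusted p = 0.227). The hormone gene RLN1 was dim, at 2.96 and 3.17 against 4.16 and 4.30 (difference 1.16, limma adjusted p = 0.131). None of these passed, and in each both CM272 arrays lay above both controls.

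**Figure D1:**
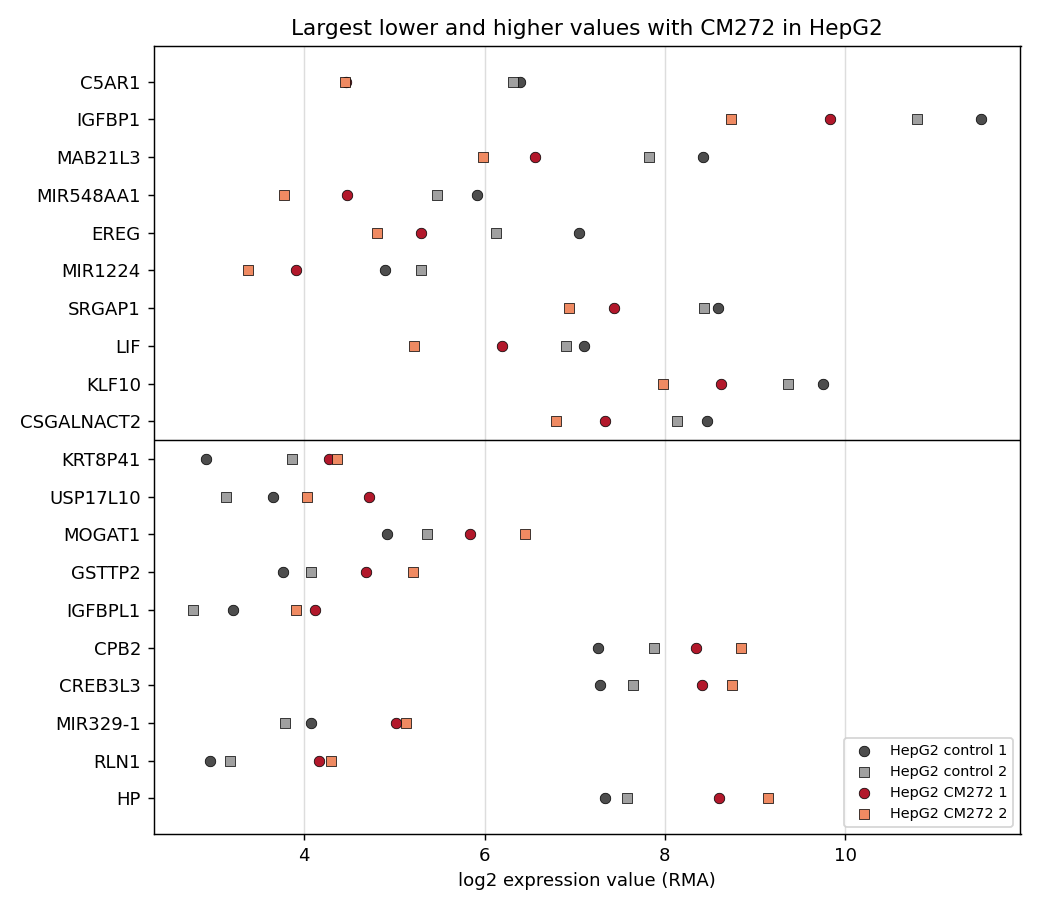
Log2 expression value (x axis) of the 10 genes with the largest lower and the 10 with the largest higher values in HepG2 with CM272 (rows, split by the line), 1 point per array. The C5AR1 arrays coincide within each group (6.39 and 6.32 in controls, 4.47 and 4.46 with CM272), while those of IGFBP1 spread from 8.74 to 11.50.

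The targets of CM272 and their partners showed no called difference at the RNA level. EHMT2, the G9a gene, had 7.07 and 7.12 in controls and 7.32 and 7.60 with CM272, a difference of 0.37 (95% interval 0.01 to 0.72, limma adjusted p = 0.418). EHMT1, the GLP gene, had 6.91 and 6.88 against 7.03 and 7.06, a difference of 0.15 (95% interval -0.18 to 0.48). DNMT1 had 8.26 and 8.41 against 8.26 and 8.30, a difference of -0.05 with overlapping groups (95% interval -0.37 to 0.26), and its sign turned to 0.03 after quantile normalization over the 8 arrays. UHRF1 had 7.91 and 7.97 against 8.06 and 8.06, a difference of 0.12 (95% interval -0.21 to 0.45). DNMT3A, which sets new methyl marks, had 6.14 and 6.34 against 6.50 and 6.64 (difference 0.33, limma adjusted p = 0.42). Of the 19 members tested in this list, 0 were called, 7 had both CM272 arrays higher and 7 lower, and the median was -0.04. CM272 acts on the enzymes' activity, and RNA values do not measure that.

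Germline and cancer-testis genes, a class that DNA methylation keeps silent in most tissues, gave no separate groups in HepG2. Of 38 listed genes, 18 had a named probe set, 14 of these were too dim in both lines, and of the 4 tested 0 had separate groups. Of these 4, 2 had a mean of at most 4 in both HepG2 groups, TEX14 among them, and passed the brightness filter through LX2 alone. Mean levels of the 4 in HepG2 ran from 3.09 to 5.13, so the lack of separation rests on dim values. TEX14, which is needed for bridges between germ cells, had 3.15 and 3.27 in HepG2 controls and 2.61 and 3.34 with CM272. In LX2 the same gene rose from 3.86 and 3.94 to 9.07 and 9.47, and the difference between lines was -5.61 (limma adjusted p = 3.336e-05). Tumour suppressors often silenced by methylation gave 5 of 23 members with both CM272 arrays higher and 5 lower, with a median of 0.03 and 0 called. The largest difference in that list was a lower value, of TXNIP, which binds thioredoxin and restrains glucose uptake, with 8.86 and 8.49 against 8.01 and 7.65 (difference -0.85, limma adjusted p = 0.227). Of 16 imprinted genes tested, 2 lay higher and 3 lower, the largest being GRB10, an adaptor of insulin receptor signalling, at 6.12 and 5.85 against 5.48 and 5.30 (difference -0.59, limma adjusted p = 0.239). In neuronal genes 5 of 19 lay higher and 3 lower, and L1CAM, a neural adhesion molecule, had the largest difference, at 5.68 and 5.50 against 5.07 and 5.09.

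The genes of cholesterol synthesis lay mostly higher with CM272. Like every list here, this list was chosen with earlier results of these data known. Its counts and median describe the list and are not independent support. None of 17 members tested was called, while 15 had both CM272 arrays above both controls, 1 lay below, and the median difference was 0.44, against -0.02 for all genes and -0.06 for genes with a mean of 6 to 8, where the list's median level lies. In this pathway HMGCS1 makes the precursor of mevalonate, MVK, PMVK and MVD turn mevalonate into isoprenoid units, IDI1 and FDPS join them, and SQLE, MSMO1, EBP and DHCR7 work on squalene and the sterol rings. HMGCS1 had 7.13 and 7.08 in controls and 7.50 and 7.88 with CM272 (difference 0.58, SE 0.16, limma adjusted p = 0.252). MVD had 6.65 and 6.89 against 7.23 and 7.53 (difference 0.61, SE 0.23, limma adjusted p = 0.364). SQLE, which commits squalene to sterols, had 7.87 and 7.88 against 8.30 and 8.64 (difference 0.60, SE 0.15, limma adjusted p = 0.243). All 3 had separate groups, with the CM272 replicate 2 array highest. MSMO1, a sterol methyl oxidase, had 8.26 and 8.24 against 8.71 and 8.96 (difference 0.58, SE 0.14, limma adjusted p = 0.231). ACAT2, a thiolase of the first step, had 8.13 and 8.63 against 8.66 and 9.32, so that 1 control array nearly reached 1 treated array (difference 0.61, limma adjusted p = 0.364). FDPS had 6.60 and 6.62 against 6.88 and 7.36 (difference 0.51, limma adjusted p = 0.337), and DHCR7 overlapped between groups.

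The regulators of this pathway differed little. SREBF2, the transcription factor that turns on sterol genes, had 7.32 and 7.30 in controls and 7.29 and 7.16 with CM272 (difference -0.09, limma adjusted p = 0.864), the single member with lower values. INSIG1, which holds that factor back, was dim in HepG2, at 3.12 and 3.02 against 3.17 and 3.28. The list median was 0.27 without CM272 replicate 2 and 0.60 without CM272 replicate 1, while 15 or 16 of the 17 members lay higher whichever HepG2 array was left out. In LX2, 5 members fell (SQLE, HMGCS1, MSMO1, STARD4 and INSIG1) and the median was -0.42. The test of the difference between lines passed for 4 members: SQLE with 1.76 (limma adjusted p = 0.0085), HMGCS1 with 1.28 (0.0337), MSMO1 with 1.17 (0.0293) and INSIG1 with 0.97 (0.0444). For SQLE, HMGCS1 and MSMO1 the HepG2 values lay higher while the LX2 values fell. SQLE lost its call without control replicate 1 (limma adjusted p = 0.0541) and no other HepG2 array. HMGCS1 and MSMO1 lost theirs when any HepG2 array except CM272 replicate 1 was left out (limma adjusted p from 0.119 to 0.141 and from 0.123 to 0.136), and INSIG1 when any 1 of the 4 was left out (0.101 to 0.178).

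Promoters of 3 cholesterol enzymes are shown, picked after their values were seen: the 3 with the largest differences among members with a single start in the RefSeq table whose promoters were used here. Each is the 250 bases before the start in GRCh38.p14, with CCAAT boxes in capitals. The MVD window is chr16:88663092-88663341 on the minus strand, with 3 boxes. The MSMO1 window is chr4:165327419-165327668 on the plus strand, with 4. The window of HSD17B7, a sterol reductase with 4.77 and 5.16 in controls and 5.45 and 5.56 with CM272, is chr1:162790452-162790701 on the plus strand, with 1.
MVD: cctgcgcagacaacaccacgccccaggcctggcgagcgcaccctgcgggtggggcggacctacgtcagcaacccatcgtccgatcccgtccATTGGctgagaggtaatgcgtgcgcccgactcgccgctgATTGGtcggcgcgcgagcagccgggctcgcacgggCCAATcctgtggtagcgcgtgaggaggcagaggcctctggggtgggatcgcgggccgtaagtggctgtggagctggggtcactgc
MSMO1: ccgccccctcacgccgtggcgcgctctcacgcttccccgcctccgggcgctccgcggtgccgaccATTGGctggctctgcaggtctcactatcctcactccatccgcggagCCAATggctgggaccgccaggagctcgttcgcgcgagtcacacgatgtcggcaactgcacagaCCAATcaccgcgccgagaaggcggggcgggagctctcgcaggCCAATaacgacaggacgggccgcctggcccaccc
HSD17B7: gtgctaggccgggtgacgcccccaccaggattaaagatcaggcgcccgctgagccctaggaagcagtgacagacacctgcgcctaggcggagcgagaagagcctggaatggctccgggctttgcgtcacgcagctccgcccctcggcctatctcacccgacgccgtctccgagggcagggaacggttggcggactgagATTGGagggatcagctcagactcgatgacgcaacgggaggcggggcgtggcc

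Over windows of 300 bases, which add the 50 bases after the start, the CCAAT box stood on either strand in 13 of the 15 tested cholesterol genes that matched the promoter table (86.7%), against 35.7% of 27305 genes in it. It was also common in the mitosis list, in 21 of 27 (77.8%), and stood in 11 of 24 plasma protein genes and 9 of 19 immediate-early genes. The 27305 genes include genes not tested here. The sterol element TCACNCCAC, searched on both strands, matched 1 of the 15 cholesterol genes (6.67%) and 1.15% of all genes. Neither motif contains the other. The other motifs searched on both strands were the hypoxia element ACGTG, the cyclic AMP element TGACGTCA, the AP-1 site TGANTCA, the cell cycle element TTTGAA and the E2F sites TTTCGCGC and TTTGGCGC. Immediate-early genes held the cyclic AMP element in 2 of 19 (10.5%), against 1.98% of all genes. Mitosis genes held TTTGAA in 19 of 27 (70.4%), against 15.4% of all genes. These matches describe letters in a window and not binding.

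Hepatocyte plasma protein genes also lay mostly higher. Of 30 tested, 0 were called, 20 had both CM272 arrays above both controls, 2 lay below, and the median was 0.22 (0.15 without control replicate 1), while genes with a mean above 8 had a median of -0.10. Beside HP, the haem carrier gene HPX had 6.26 and 6.62 in controls and 7.15 and 7.24 with CM272 (difference 0.75, SE 0.18, limma adjusted p = 0.231). KNG1, the kininogen of the contact system, had 5.65 and 5.86 against 6.39 and 6.62 (difference 0.75, limma adjusted p = 0.231). F11, a clotting factor of that system, had 7.997 and 8.004 against 8.45 and 8.69 (difference 0.57, limma adjusted p = 0.307). ALB, the albumin gene, had a difference of 0.04 (95% interval -0.26 to 0.34). The fibrinogen genes FGA, FGB and FGG, whose CM272 arrays all lay above the controls, had 0.32 (95% interval 0.02 to 0.62), 0.21 (-0.09 to 0.51) and 0.24 (-0.07 to 0.54). The 2 members with lower values were the acid glycoprotein genes ORM1 (difference -0.39) and ORM2 (difference -0.37), near-identical copies whose probes may not tell them apart. In LX2 the list median was 0.12, with 1 member called higher and 1 lower. The member called higher there was HP (difference 0.76, limma adjusted p = 0.0388). No member passed the test between lines.

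Of 14 apolipoprotein and lipid export genes, 9 lay higher and 1 lower, with a median of 0.16 and 0 called. APOC3, an inhibitor of lipoprotein lipase, had 8.06 and 8.61 against 8.97 and 9.13 (difference 0.71, limma adjusted p = 0.356). MTTP, which loads lipid onto apolipoprotein B, had 7.31 and 7.44 against 7.88 and 8.06 (difference 0.60, limma adjusted p = 0.245). APOB itself was the member below, at 13.30 and 13.26 against 13.15 and 13.05. In LX2 the median of this list was 0.26 with 1 member called higher, and no member passed the test between lines. Of 34 bile acid and drug metabolism genes listed, only 4 had a named probe set, too few to describe the group. The glutathione transferases GSTA1 and GSTA2, close copies, had differences of 0.79 and 0.89, and the liver carboxylesterase CES1 had 9.16 and 9.21 against 9.84 and 9.96 (difference 0.71, SE 0.14, limma adjusted p = 0.227).

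Hepatocyte transcription factors had no common side, with 5 of 12 higher, 5 lower and a median of -0.002. PPARA, the receptor that drives fatty acid oxidation, had 5.73 and 5.78 against 6.28 and 6.45 (difference 0.61, limma adjusted p = 0.239). ATF5 had 6.46 and 6.39 against 6.11 and 5.83 (difference -0.46, limma adjusted p = 0.341). In the urea cycle and amino acid list 5 of 16 lay higher and 6 lower. NAGS, which makes the activator of the urea cycle, had 7.64 and 7.75 against 7.16 and 6.62 (difference -0.80, limma adjusted p = 0.231), and CTH, which makes cysteine, had 9.21 and 9.03 against 8.58 and 8.16 (difference -0.75, limma adjusted p = 0.361). Fetal liver genes were 4 higher and 5 lower of 18 with a median of 0.01, and SOX4 had 7.204 and 7.002 against 6.54 and 6.63. The Wnt target list gave 5 higher and 4 lower of 17, with MYC at 10.17 and 10.16 against 9.93 and 9.69 (difference -0.35).

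Fuel metabolism genes split. In fatty acid and triglyceride synthesis 9 of 23 lay higher and 8 lower, with a median of 0.09. PLIN2, the coat protein of lipid droplets, had 7.70 and 7.47 against 6.92 and 6.71 (difference -0.77, limma adjusted p = 0.227), and ACSL5, which activates fatty acids, had 9.51 and 8.89 against 8.54 and 8.22 (difference -0.81, limma adjusted p = 0.331). ACSS2, which activates acetate, and SCD, the fatty acid desaturase, lay the other way, with differences of 0.57 and 0.31, and for both the difference between lines passed, at 1.25 and 1.19 (limma adjusted p = 0.0416 and 0.0367), both having fallen in LX2. Leaving out any 1 HepG2 array ended both calls. Among 9 glycolysis genes 2 lay higher and 3 lower, and HK2, the hexokinase typical of tumour cells, had 9.41 and 9.28 against 8.66 and 8.20 (difference -0.91, SE 0.17, limma adjusted p = 0.227). Gluconeogenesis and fuel genes were 3 higher and 2 lower of 8, KHK having the largest difference at 0.59. The hypoxia list was 7 higher and 7 lower of 21, and oxidative phosphorylation 1 and 1 of 9.

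**Figure D2:**
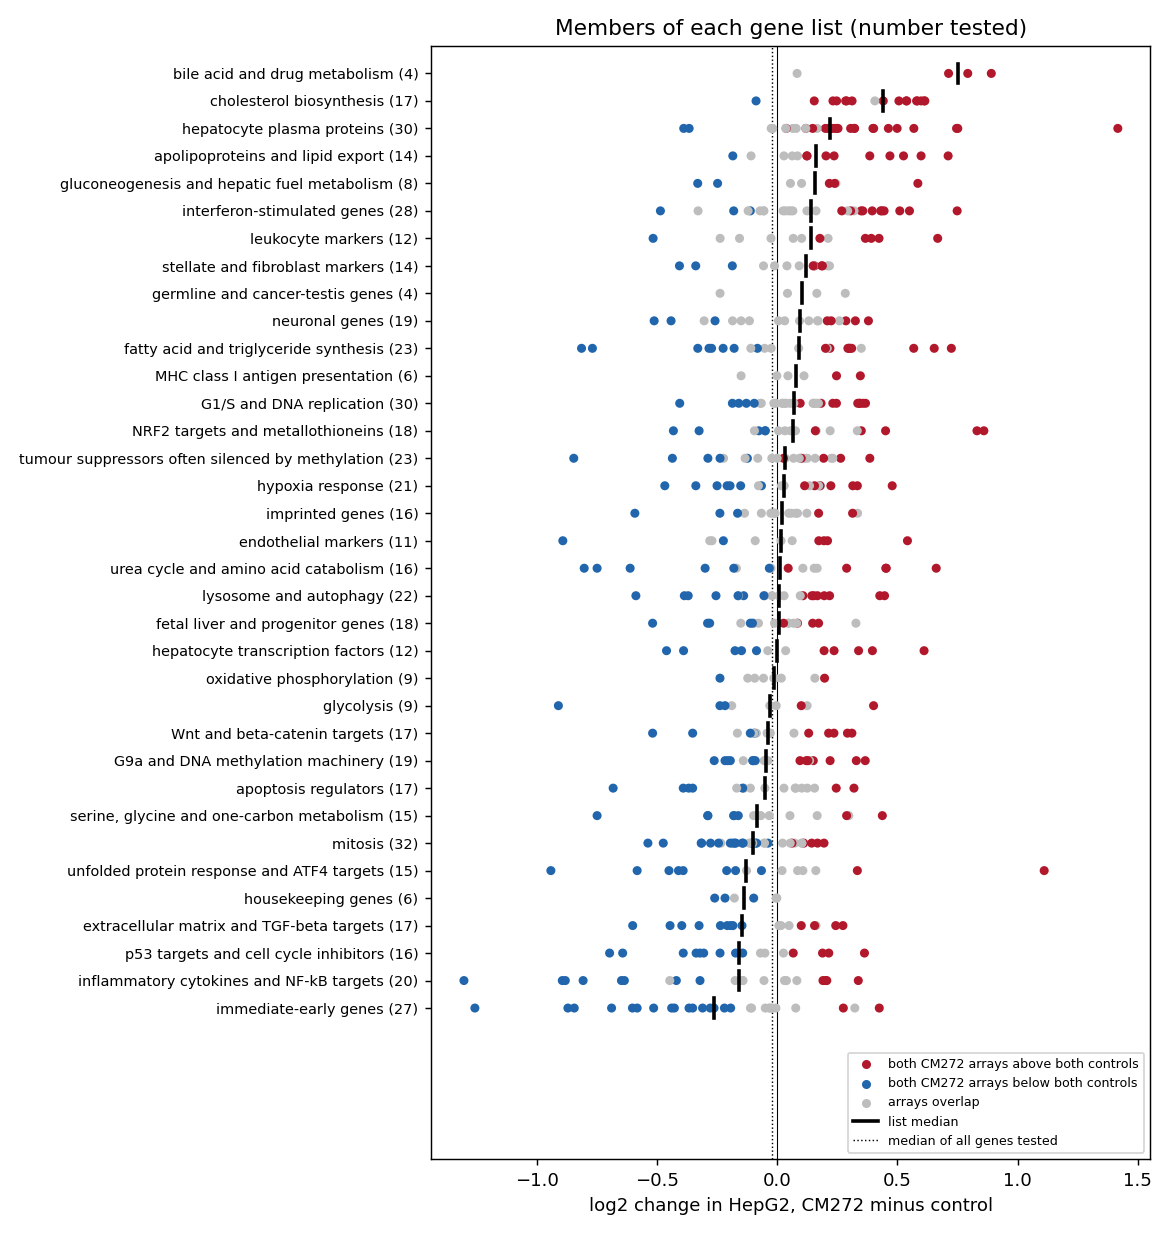
Log2 difference in HepG2, CM272 minus control (x axis), of every tested member of 35 gene lists (rows, number tested in brackets), coloured by whether the 2 CM272 arrays lay beyond the 2 controls. Thick bars are list medians and the dotted line is the median of all genes, -0.02. Cholesterol synthesis has a median of 0.44 and immediate-early genes one of -0.26.

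Immediate-early genes, the first genes that cells switch on after growth or stress signals, lay lower. Their list, too, was chosen with earlier results of these data known, so its counts and median are a description only. Of 27 tested, 0 were called, 16 had both CM272 arrays below both controls (59.3%), 2 lay above, and the median was -0.26. Among genes with a mean of 6 to 8, 38.8% lay below. KLF10, a zinc finger repressor induced by TGF-beta, had 9.75 and 9.36 in controls and 8.62 and 7.98 with CM272 (difference -1.26, SE 0.23, limma adjusted p = 0.22). FOSL1, a subunit of AP-1, had 7.70 and 7.61 against 7.04 and 6.53 (difference -0.87, limma adjusted p = 0.231). EGR1, a growth-induced zinc finger factor, had 9.06 and 9.22 against 8.66 and 7.94 (difference -0.84, limma adjusted p = 0.261). In each the groups were separate and CM272 replicate 2 was lowest. ATF3, a stress factor that binds with AP-1 proteins, had 6.53 and 6.59 against 6.07 and 5.88 (difference -0.58, limma adjusted p = 0.356). FOS, with a difference of 0.08, and FOSB, with -0.02, overlapped between groups, and ARC lay higher at 4.84 and 4.59 against 5.25 and 5.03.

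In LX2, 10 of these 27 genes rose and 0 fell, with a median of 0.33. The test between lines passed for FOSB with -4.18 (limma adjusted p = 2.445e-05), EGR1 with -2.59 (0.00868) and ATF3 with -2.35 (0.00915). FOSB went from 5.28 and 5.10 to 9.44 and 9.26 in LX2 and stood at 5.12, 4.88, 5.01 and 4.94 across the HepG2 arrays. For EGR1 and ATF3 the HepG2 values lay lower while the LX2 values rose. ATF3 lost its call without CM272 replicate 2 (limma adjusted p = 0.0565), whereas FOSB and EGR1 kept theirs without any 1 HepG2 array.

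**Figure D3:**
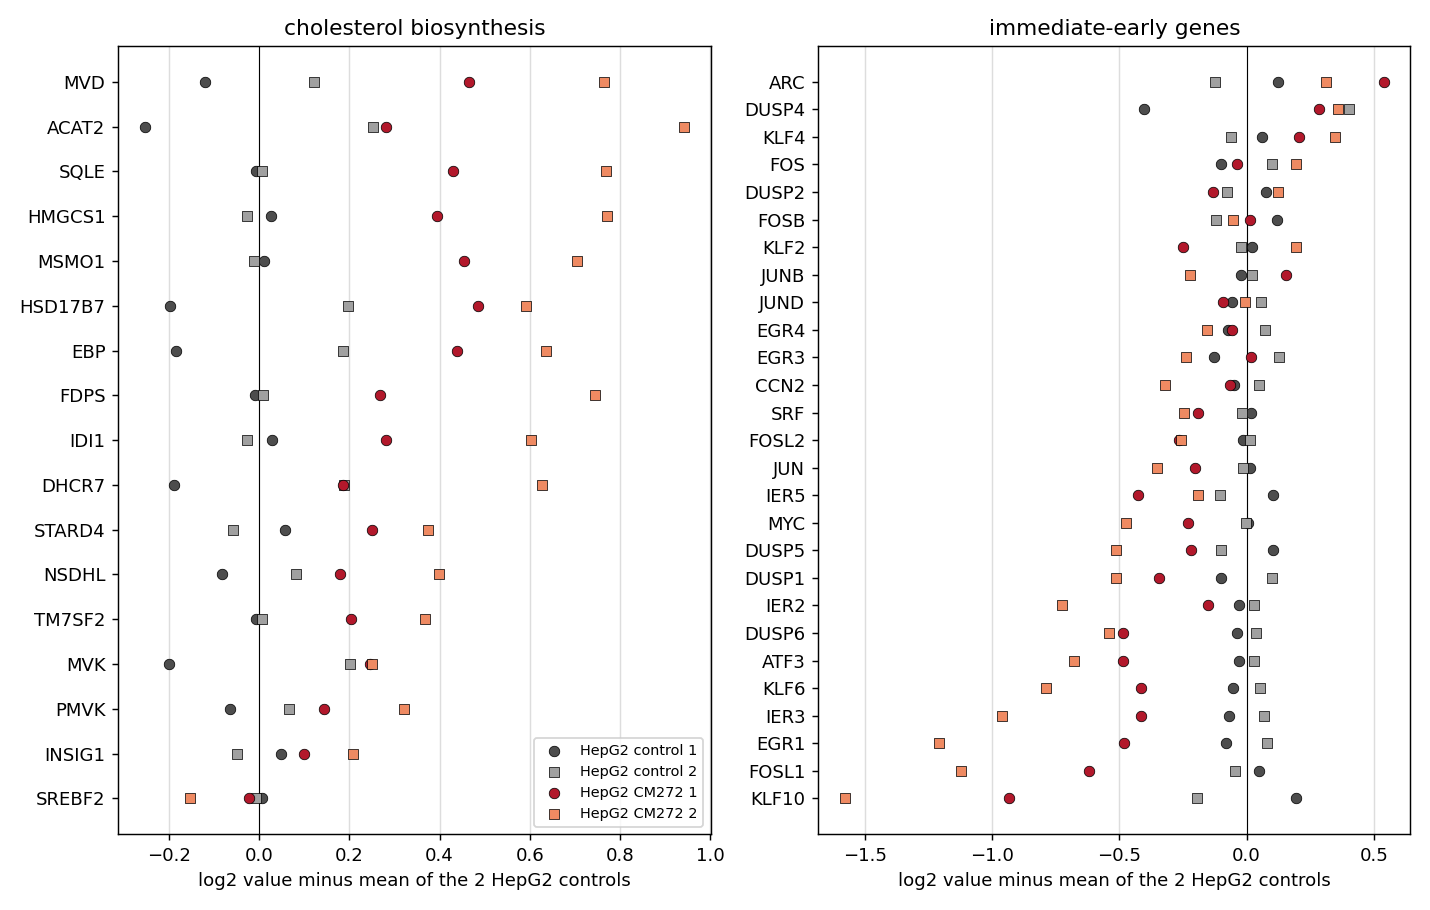
Log2 value of each HepG2 array minus the mean of the 2 controls (x axis) for the tested members of the cholesterol synthesis list (left) and the immediate-early list (right), 1 row per gene, ordered by the difference. On the left 15 of 17 genes have both CM272 arrays right of both controls, and on the right 16 of 27 have both left of them.

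Inflammatory genes gave 8 of 20 members lower and 4 higher, with a median of -0.16 and 0 called. Among all genes with a mean of 4 to 6, where the list's median level lies, 17.1% lay lower and 23.7% higher. Member levels ran from 2.98 to 11.92. LIF, a cytokine of the interleukin-6 family, had 7.10 and 6.91 in controls and 6.19 and 5.22 with CM272 (difference -1.30, SE 0.27, limma adjusted p = 0.227). IL18 had 6.10 and 5.90 against 5.25 and 4.97 (difference -0.89, SE 0.19, limma adjusted p = 0.227). IL11 had 6.62 and 6.03 against 5.42 and 5.47, and the neutrophil chemokine CXCL8 had 5.78 and 5.37 against 4.88 and 4.65, with differences of -0.88 and -0.81. The groups of these 4 genes did not overlap. Without CM272 replicate 1 the list median was -0.32 with 13 members lower, without CM272 replicate 2 it was -0.06 with 8 members higher and 9 lower, and with the filter at log2 6 it was -0.25. In LX2, 4 members of the list rose, and the test between lines passed for IL11 (-1.58), PTGS2 (-2.17), ICAM1 (-1.40) and CCL20 (-2.35), each with the HepG2 difference below that of LX2. Leaving out 1 HepG2 array ended each of these 4 calls: any array for CCL20, any except CM272 replicate 1 for PTGS2 and ICAM1, and any except control replicate 2 for IL11.

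Of 28 interferon-stimulated genes 11 lay higher (39.3%), 3 lower and 14 overlapped, with a median of 0.14 and 0 called. Among all genes with a mean of 4 to 6, 23.7% lay higher. The list median was 0.28 without CM272 replicate 1. USP18, a protease that removes ISG15, had 6.72 and 7.13 against 7.48 and 7.86 (difference 0.75, limma adjusted p = 0.245). IFIH1, a sensor of double-stranded RNA, had 5.28 and 5.31 against 5.75 and 5.94 (difference 0.55, limma adjusted p = 0.297). In LX2 the list median was 0.31, with 3 members called higher and 0 lower. OASL and IFI44L rose in LX2 and passed the test between lines, at -2.50 and -1.59 (limma adjusted p = 0.00372 and 0.00868). IFI44L lost its call without control replicate 2 (0.0553) or CM272 replicate 2 (0.053), and OASL kept its own without any 1. Of 6 MHC class I genes 2 lay higher and 0 lower.

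In the unfolded protein response and ATF4 list 8 of 15 lay lower (53.3%) and 2 higher, with a median of -0.13, near the 51.9% and -0.10 of all genes above 8, where its median level lies. Without control replicate 1 the median was -0.21. ERN1, the kinase that senses unfolded proteins, had 7.64 and 7.42 against 6.87 and 6.30 (difference -0.94, SE 0.20, limma adjusted p = 0.227), whereas CREB3L3 was the largest higher value. Of 16 p53 targets 9 lay lower and 4 higher, in a brightness class where 38.8% of all genes lay lower. Among them GDF15, a stress cytokine, had 11.94 and 11.86 against 11.46 and 10.95 (difference -0.70, limma adjusted p = 0.347). PLK2 had 5.74 and 5.45 against 5.15 and 4.76 (difference -0.64). Of 17 apoptosis regulators 5 lay lower and 2 higher, and MCL1, which protects from apoptosis, had 9.38 and 9.26 against 8.84 and 8.44 (difference -0.68, limma adjusted p = 0.227). Mitosis genes gave 17 of 32 lower (53.1%) and 5 higher with a median of -0.10 (-0.06 without control replicate 1), in a brightness class where 38.8% lay lower. ECT2, which places the cleavage furrow, had 8.13 and 7.83 against 7.50 and 7.38 (difference -0.54, limma adjusted p = 0.445), while the proliferation marker MKI67 had a difference of 0.14 (limma adjusted p = 0.738). Genes of DNA replication were 10 higher and 5 lower of 30. The metallothioneins MT1G and MT1F, close copies, had differences of 0.86 and 0.83 within a list of 5 higher and 5 lower of 18.

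In the remaining lists, as in all others, no member was called. Extracellular matrix and TGF-beta targets were 9 lower and 4 higher of 17, in a brightness class where 38.8% of all genes lay lower. THBS2 had 5.28 and 5.57 against 4.93 and 4.72 (difference -0.60, limma adjusted p = 0.302). One-carbon metabolism was 6 lower and 2 higher of 15, in a brightness class where 51.9% of all genes lay lower. Lysosome and autophagy genes were 7 lower and 8 higher of 22. Of 6 housekeeping genes 3 lay lower, the largest being HPRT1 with -0.26. Leukocyte markers were 5 higher and 1 lower of 12, where CD68, a lysosomal protein, had 8.17 and 8.24 against 8.45 and 8.74 and GNLY 3.86 and 4.12 against 4.58 and 4.74. Endothelial markers were 4 higher and 2 lower of 11, where the junction protein ESAM had 7.15 and 6.76 against 6.14 and 5.99 (difference -0.89, limma adjusted p = 0.227). Stellate and fibroblast markers were 4 higher and 3 lower of 14. None of the members of these marker lists was called. The 26 listed histone genes had no named probe set.

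The CM272 effect differed between HepG2 and LX2 for 145 of 12239 genes (1.18%), with the HepG2 difference above that of LX2 for 44 (0.36%) and below it for 101 (0.825%). Of these, 134 were called in LX2 itself, 79 had a HepG2 difference under 0.3 in size, and 121 had opposite signs in the 2 lines. Picking genes for a difference between lines favours opposite signs, and a small HepG2 difference leaves its own sign uncertain. Without any 1 HepG2 array the count was lower, but a group then held 1 array and the fit had less power. The count was 79 with no filter, 371 with the filter at log2 6 and 286 with the trend and robust prior.

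The largest differences below LX2 were of genes that rose in LX2, with HepG2 differences of at most 0.31 in size. TEX14 is given above. USP17L9P and USP17L12, which share all values here and belong to a multicopy deubiquitinase family, stood at 3.82, 3.47, 3.66 and 3.74 over the HepG2 arrays and rose in LX2 (difference between lines -4.64, limma adjusted p = 2.445e-05). ZNF280A, a zinc finger gene, had 4.96 and 4.73 against 4.40 and 4.67 in HepG2 (difference between lines -4.15, limma adjusted p = 2.561e-05). FOSB completes these 5, and all 5 passed without any 1 HepG2 array. Another gene of the deubiquitinase family, USP17L10, lay higher in HepG2, at 3.66 and 3.13 against 4.72 and 4.03 (difference 0.98, limma adjusted p = 0.239). It also rose in LX2, from 4.47 and 4.31 to 6.21 and 6.46. Its difference between lines did not pass (limma adjusted p = 0.1915). The gene for the secreted neuronal guide RELN, picked after its values were seen, was bright in HepG2 already, at 11.03 and 11.12 in controls and 11.31 and 11.40 with CM272, while in LX2 it went from 4.59 and 4.77 to 8.71 and 8.52.

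The largest differences above LX2 were MIR4668 with 2.94 (limma adjusted p = 0.0232), SQLE with 1.76, HOXB4 with 1.76 (0.0181), MIR548C with 1.64 (0.026) and MBOAT1 with 1.61 (0.0262). HOXB4, a homeobox factor of blood progenitors, was dim in HepG2, at 3.26 and 3.43 against 3.89 and 4.43, and fell in LX2 from 7.43 and 7.32 to 6.43 and 6.45. MBOAT1, a membrane-bound acyltransferase, had 3.26 and 2.94 against 3.44 and 3.80 in HepG2, and fell in LX2 from 8.20 and 7.88 to 7.01 and 6.90. MIR4668 had 1.94 and 2.80 against 2.58 and 3.37 in HepG2, and fell in LX2 from 6.76 and 6.78 to 4.14 and 4.72. MIR548C had 4.78 and 4.28 against 4.66 and 4.59 in HepG2, and fell in LX2 from 5.76 and 5.59 to 3.99 and 4.26. MIR4668, HOXB4 and MBOAT1 passed the brightness filter through LX2 alone. The microRNA names are those of the probe sets' genes, and the values do not measure mature microRNA. Leaving out 1 HepG2 array ended the call for MIR4668 (without control replicate 1 or CM272 replicate 2), HOXB4 and MBOAT1 (any except CM272 replicate 1) and MIR548C (any except control replicate 1).

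Among the 145, 53 also had a limma unadjusted p under 0.05 in HepG2. Of these, 35 had lower and 18 higher HepG2 values, all 53 with the opposite sign in LX2, and 42 were called in LX2. They were picked for a difference between lines, which favours opposite signs, so the signs are not a separate result. Beside C5AR1, EREG had -2.65 between lines (limma adjusted p = 0.0181), with LX2 values that rose from 3.50 and 3.27 to 4.55 and 4.44. TXNIP had -2.09 (0.00708), with a rise in LX2 from 7.80 and 7.75 to 8.94 and 9.10. ERN1 had -2.07 (0.0126), with a rise in LX2 from 6.26 and 6.05 to 7.24 and 7.32. MAB21L3 had -1.96 (0.0365) and was at most 3.66 in every LX2 array, so that its difference between lines was that of HepG2. The call ended without control replicate 1 for ERN1 (limma adjusted p = 0.0752) and MAB21L3 (0.126), and without CM272 replicate 2 for EREG (0.0704) and MAB21L3 (0.123).

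**Figure D4:**
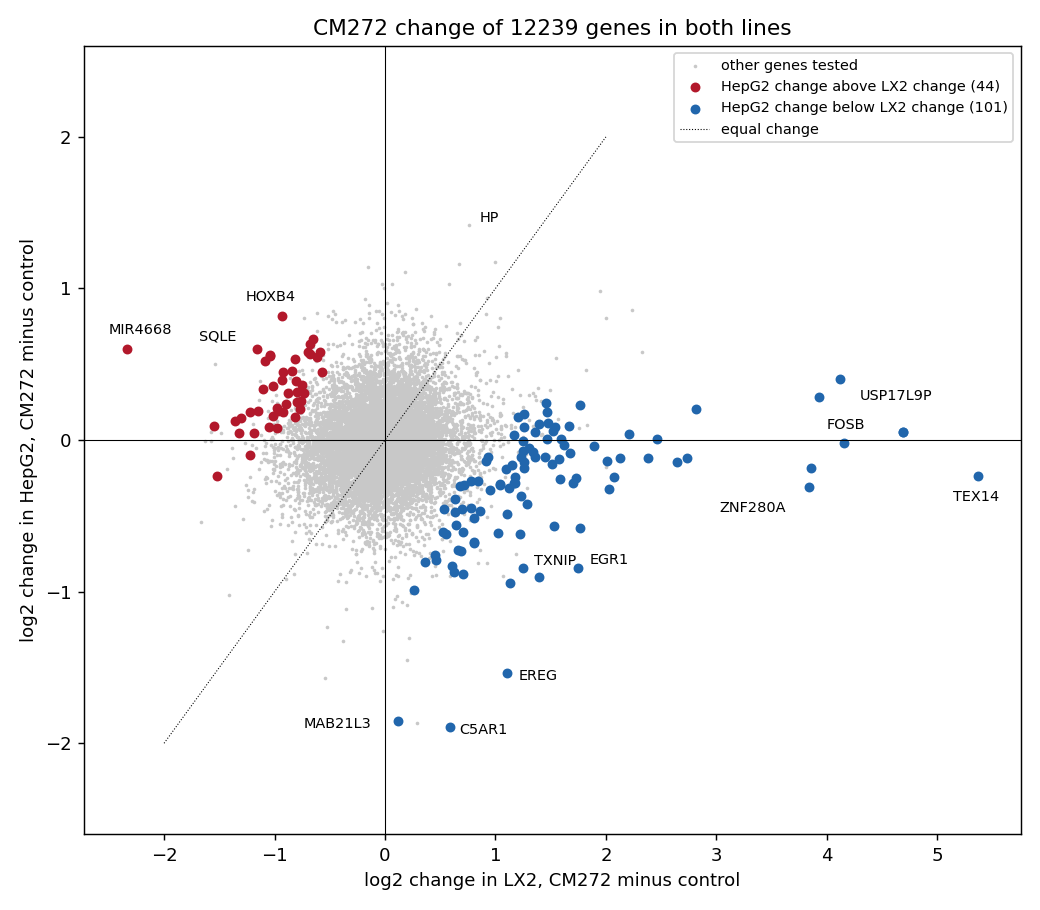
Log2 difference between CM272 and control in LX2 (x axis) and in HepG2 (y axis) for each of 12239 genes, with the 145 genes whose effect differed between the lines in colour and a dotted line of equal difference. C5AR1 lies at -1.89 in HepG2 and 0.59 in LX2, and TEX14 at -0.24 and 5.37.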

How the data were processed

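Total RNA of 8 cell line samples, 300 ng each, was hybridised to Affymetrix arrays. The deposited log2 values were made by the authors with RMA, per the submitters' processing notes (version, settings and build not given in the sources used here). RMA gives arrays a near-common distribution, so a change shared by most genes is partly removed, and folds of dim genes are compressed. Of 48416 probe sets, 16098 had 1 gene symbol. The brightest probe set of each symbol over the 8 arrays was kept.

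One limma 3.58.1 fit in R 4.3.3 over all 8 arrays gave the CM272 difference in each line and the difference between lines (two-sided, Benjamini-Hochberg over 12239 genes, threshold 0.05, residual df 4, prior df 5.47). In simulated data with independent noise, the fit returned mean differences within 0.1 of those put in. The ordering of replicates described above was not simulated. An exact permutation test of 2 arrays against 2 cannot go below 0.333 and was not used. The rule for named genes took called genes, up to 2 largest values in each list without a call, the 5 largest differences between lines each way, and EHMT2, EHMT1, DNMT1 and UHRF1. All other genes were named after their values were seen. The comparison and the 36 lists were chosen with earlier results of these data known. Lists share members (ATF3, C3, MYC, CTH and SOX4 among them) and were not tested. Precision is limited by 2 arrays a group. Promoters were taken from RefSeq, the first start listed per gene.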

Additional observations from a re-analysis of the deposited data

Results flagged for a closer look

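The following differences between lines are listed because the test of the difference itself (limma, over all 12239 genes) passed. On the log2 scale, the HepG2 difference minus the LX2 difference was -2.48 for C5AR1, -2.65 for EREG, -2.07 for ERN1, -2.09 for TXNIP and -1.96 for MAB21L3, genes with lower values in HepG2. It was -5.61 for TEX14, -4.64 for USP17L9P and USP17L12, which share their values, -4.18 for FOSB and -4.15 for ZNF280A, genes that rose in LX2. It was 2.94 for MIR4668, 1.76 for SQLE, 1.76 for HOXB4, 1.64 for MIR548C and 1.61 for MBOAT1, genes that fell in LX2. Of the genes listed, MIR4668, HOXB4, MBOAT1, TEX14, USP17L9P and USP17L12 passed the brightness filter through LX2 alone. The lines also differed in serum level, and the 2 cannot be told apart. Groups of 2 arrays allow no test of a single array as an outlier.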

How the results depend on the processing

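The count of genes called in HepG2 was 1, with 0 higher and 1 lower. It was 0 in a fit of HepG2 alone (0 lower), 2 with no filter (1 higher, MIR548AK), 4 with the filter at log2 6 (1 higher, 3 lower), 5 with array weights (1 higher, 4 lower) and 4 with the trend and robust prior (1 higher, 3 lower). Without each HepG2 array in turn it was 0 in all 4 fits, where the lone array was assumed to vary like the others. The count of differences between lines, 145, was 79, 371 and 286 with no filter, the filter at log2 6 and the trend and robust prior, and 28 to 68 without 1 array. The replicate block gave 1 call in HepG2 and 119 between lines, so it changed no HepG2 call. The numbers were not taken to pair samples, since no label says that they do. Over all genes, deviations of same-numbered arrays correlated at 0.0692 in HepG2 and 0.0771 in LX2. Among the 27 HepG2 genes with 2-fold differences and no overlap, however, both replicate 2 arrays were shifted in the direction of the difference for 24. Over all 12239 genes this held for 4059. Whether the numbers pair samples was not tested. A filter within HepG2 alone, chosen after seeing the data, gave 1 and 105. C5AR1 was called in 10 of 11 alternatives that keep every array and in 0 of 4 that leave 1 out, with limma adjusted p-values from 0.000637 to 0.24, and its sign did not turn in any of them. Quantile normalization, centring and the mean of probe sets gave 1 call each. Medians of several lists near 0 changed sign with scaling or 1 array. Those of cholesterol synthesis, plasma proteins, lipid export, immediate-early and inflammatory genes did not in any setting run. The same held for other lists, such as mitosis, glycolysis and interferon-stimulated genes. Dim genes have compressed folds, and 2 arrays a group limit every p-value.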
